A study of Mus musculus with 9 samples.

Results

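The miR-23/27/24 clusters and miR-3074 were followed as 10 mature miRNAs in exosomes released by silica-exposed macrophages. The members were chosen by name and were mmu-miR-23a-3p, mmu-miR-23a-5p, mmu-miR-23b-3p, mmu-miR-27a-3p, mmu-miR-27a-5p, mmu-miR-27b-3p, mmu-miR-24-3p, mmu-miR-24-1-5p, mmu-miR-24-2-5p and mmu-miR-3074-5p, written below without the species prefix. They are 10 of the 1101 mature miRNAs that any of the 9 libraries lists. All 10 were listed and all 10 passed the filter on low counts. Of these, 9 were listed in all 9 libraries. RAW264.7, a single mouse macrophage line, released the vesicles; it was grown in DMEM with fetal bovine serum and the vesicles were collected by ultracentrifugation. Cells kept with silica for 24 h, cells kept with silica for 48 h and untreated cells gave 3 small RNA libraries each. The sources used here do not give the dose of silica, the culture time of the untreated cells or whether the serum was depleted of vesicles. Mature miRNAs took 2158418 to 8331451 counts in a library, which was 28.0% to 44.7% of its counted reads, and the 24 h library 3 was the smallest. Levels (CPM) are counts scaled to a library total of 1000000 mature miRNA counts after TMM scaling, with no length correction, and the 9 members with a matched sequence are 21 to 23 bases long.

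Each cluster is read as a primary transcript that is cut into hairpins, and each hairpin yields a 5p and a 3p arm, of which usually one is kept in Argonaute as the guide and the other is discarded. The miR-23 guides are known as repressors of glutaminase, the miR-27 guides as brakes on adipocyte differentiation and lipid metabolism, and the miR-24 guide as a restraint on cell cycle genes during blood cell differentiation. The miR-3074 hairpins are annotated on the strand opposite to the mir-24 hairpins, so miR-3074-5p is not an arm of mir-24 but its antisense counterpart.

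The first cluster lies on chromosome 8, where Mir23a (chr8:84208518-84208592), Mir27a (chr8:84208672-84208758) and Mir24-2 (chr8:84208815-84208921) follow each other on the plus strand and Mir3074-2 (chr8:84208825-84208907) lies on the minus strand, in a stretch of 404 bases (GRCm38.p6, the build also called mm10). Mir23a and Mir27a overlap no other annotated gene. Mir24-2 overlaps an annotated exon of the non-coding gene Gm26532 only at its 3′ end, past its mature arms. Gm26532 begins 13 bases past the end coordinate of Mir3074-2. The second cluster lies on chromosome 13, where Mir23b (chr13:63300484-63300557), Mir27b (chr13:63300712-63300784) and Mir24-1 (chr13:63301208-63301275) are on the plus strand and Mir3074-1 (chr13:63301199-63301283) is on the minus strand, in 800 bases. Mir23b lies in an intron of the protein-coding gene 2010111I01Rik, and Mir27b and Mir24-1 overlap an annotated exon of it. All of them lie in introns of Fancc, which is on the minus strand.

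Mature sequences were taken from RefSeq (GRCm38.p6) and matched 9 of the 10 members, all but miR-23b-3p. The guides and arms are shown because they decide which reads can be told apart; capitals mark the seed, bases 2 to 8.
miR-23a-3p: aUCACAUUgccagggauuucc
miR-27a-3p: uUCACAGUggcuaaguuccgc
miR-27b-3p: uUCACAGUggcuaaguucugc
miR-24-3p: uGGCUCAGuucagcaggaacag
miR-3074-5p: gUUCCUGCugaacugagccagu
miR-23a-5p: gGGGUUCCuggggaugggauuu
miR-27a-5p: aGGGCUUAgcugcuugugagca
miR-24-2-5p: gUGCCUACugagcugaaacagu
miR-24-1-5p: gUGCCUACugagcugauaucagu
Shared seeds join miR-27a-3p with miR-27b-3p and miR-24-2-5p with miR-24-1-5p, and the seeds of miR-23a-3p and miR-27a-3p match at 6 of 7 bases. The paralogs miR-27a-3p and miR-27b-3p differ by a single substitution, C19U, counted from 1 at the 5′ end. The sources used here do not say to which copy a shared read was assigned, so the split between such copies is uncertain.

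Both mir-24 hairpins are shown because they carry the same 3p arm and different 5p arms (capitals mark the 5p and 3p arms).
Mir24-2: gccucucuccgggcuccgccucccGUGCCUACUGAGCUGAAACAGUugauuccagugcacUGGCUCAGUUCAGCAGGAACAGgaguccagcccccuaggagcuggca
Mir24-1: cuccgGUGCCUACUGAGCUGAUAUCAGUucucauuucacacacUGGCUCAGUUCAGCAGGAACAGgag
A count of miR-24-3p thus cannot be given to a locus, while miR-24-2-5p marks chromosome 8 and miR-24-1-5p marks chromosome 13; the 2 arms share their first 16 bases. The antisense pair is shown next, with the stretch of 20 bases over which the strands are complementary in capitals.
miR-24-3p: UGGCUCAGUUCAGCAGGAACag
miR-3074-5p: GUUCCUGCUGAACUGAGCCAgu

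The 10 members together were a large part of the vesicle miRNA, and their share was smallest at 24 h. They took 18.0%, 16.8% and 16.7% of mature counts in the 24 h libraries 1, 2 and 3, 23.3%, 20.8% and 21.6% in the 48 h libraries, and 25.7%, 23.9% and 22.3% in the untreated libraries. Every 24 h library lay below every other library. The mean share was 17.1% ± 0.755 at 24 h and 24.0% ± 1.69 in untreated cells (SD, n = 3 each; two-sided exact permutation p = 0.1, the smallest that 3 against 3 can give; 0.15 adjusted over the 3 shares compared). With miR-24-3p left out of the members but kept in the total of mature counts, the difference of -6.83 percentage points became -2.55. The groups then overlapped, with 15.6% to 16.8% at 24 h and 14.3% to 21.4% in untreated cells. Its counts in the total lower the share of the other members where it is high. For 48 h against 24 h the difference of 4.73 points became 0.61, with 13.6% to 18.7% at 48 h.

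**Figure D1:**
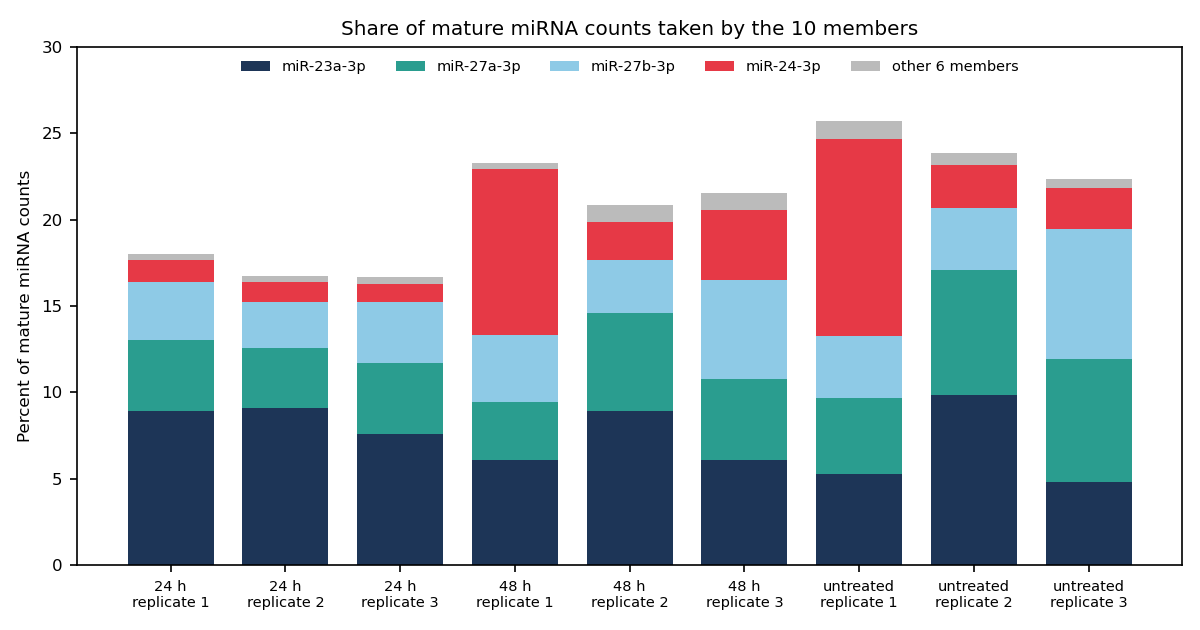
Percent of mature miRNA counts (y axis) taken by the 10 members in each of the 9 libraries, stacked by member, with the 6 scarcer members summed in grey. The 24 h bars reach 16.7% to 18.0% and the untreated bars 22.3% to 25.7%; miR-24-3p is the widest band in the untreated library 1 and the 48 h library 1.

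By mean level over the 9 libraries the order began with miR-23a-3p at 73203 CPM and miR-27a-3p at 48598 CPM. Then came miR-24-3p (41922 CPM), the guide miR-27b-3p (41624), miR-3074-5p (2952), miR-23b-3p (2914), miR-27a-5p (156), miR-23a-5p (86.8), miR-24-2-5p (56.0) and miR-24-1-5p (3.64). Neighbours whose means lay closer than the larger of their SDs over libraries were miR-27a-3p, miR-24-3p and miR-27b-3p, then miR-3074-5p and miR-23b-3p, and, among the scarce arms, miR-27a-5p, miR-23a-5p and miR-24-2-5p. The miR-23a guide was the steadiest member. It ranked 1 to 8 among all mature miRNAs and ran from 48058 to 92207 CPM. The miR-24 guide ran from rank 1 in the untreated library 1 to rank 24 in the 24 h library 2. Over the 9 libraries, the SD of log2(CPM + 1) was 1.34 for miR-24-3p, larger than that of each of the 25 miRNAs within 4-fold of its mean level, whose median was 0.49. For miR-3074-5p it was 4.49, larger than that of each of the 42 miRNAs within 4-fold, whose median was 0.63.

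**Figure D2:**
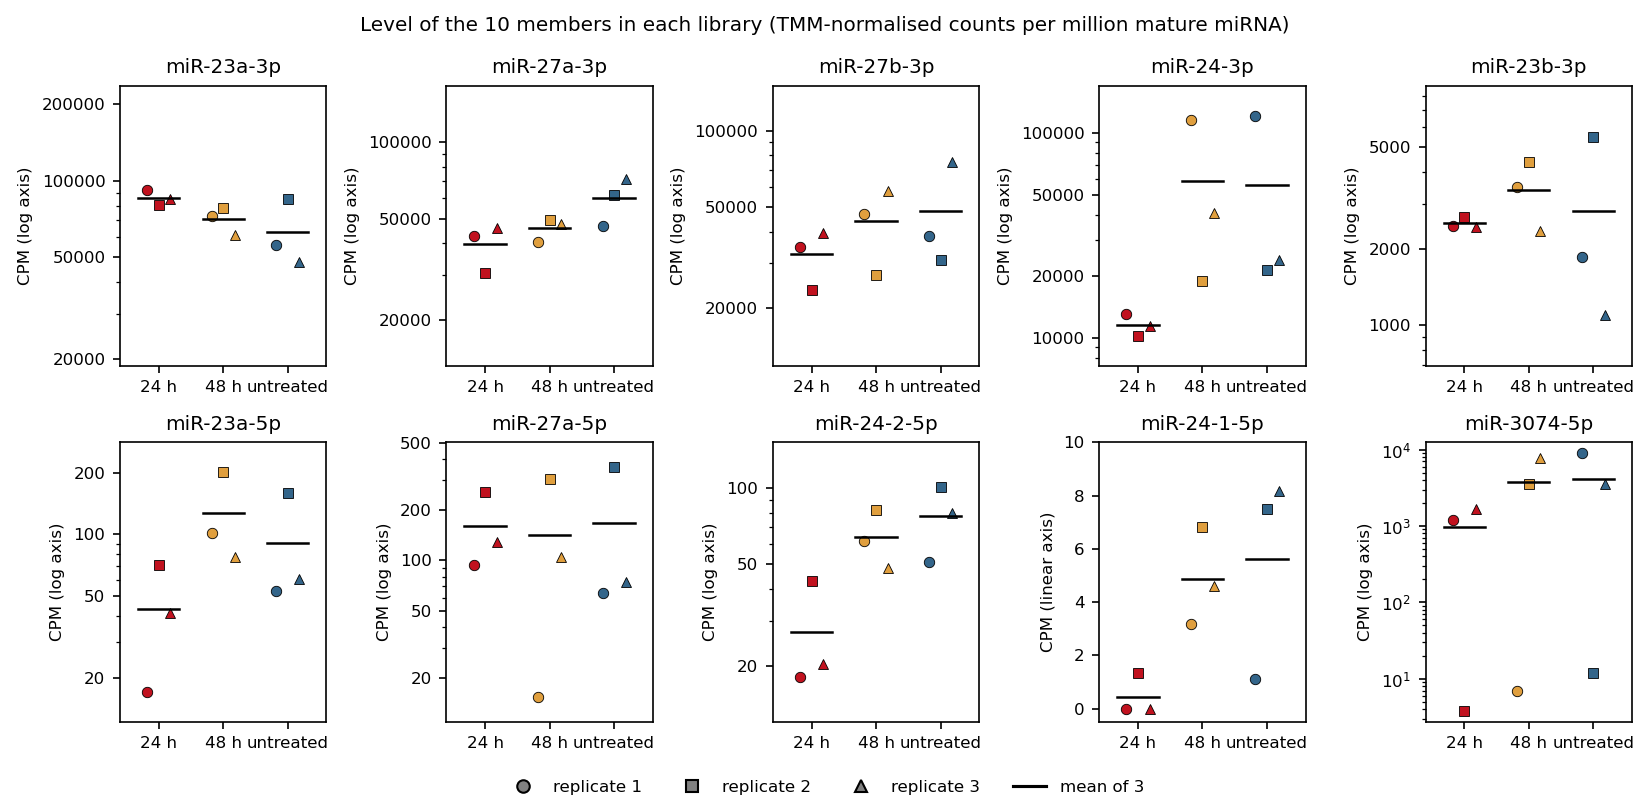
CPM of each of the 10 members (y axis, logarithmic except for miR-24-1-5p) in the 24 h, 48 h and untreated libraries; the symbol gives the replicate number and the line the mean of 3. The 3 libraries of 24 h lie below all others for miR-24-3p and miR-24-2-5p, and for miR-3074-5p 1 library of each group lies near 10 CPM or below while the other 6 lie above 1000 CPM.

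The first question was how the vesicle content differs from that of untreated cells once silica has been present for 24 h. By mean level, the mir-24 arms, miR-3074-5p, the miR-27 guides, miR-23b-3p and miR-23a-5p were all lowest at 24 h. The miR-23a guide did not share that pattern, and miR-24-1-5p overlapped between 24 h and untreated cells. With edgeR, no member had an adjusted p under 0.05 (0 of 10, where 0% of the 453 miRNAs tested passed). DESeq2 and limma-voom also called 0 members. At an unadjusted p under 0.05 there were 3 members, all lower, where 10.2% of the 453 had such a p and 4.64% had it with a lower level. These included the scarce miR-24-1-5p, which passed the filter on low counts only through untreated and 48 h libraries. Its low level at 24 h is thus tied to how it was kept. It also enters the counts of negative log2 fold changes and of same-numbered pairs below. Of the 10 members 9 had a negative log2 fold change, where 53.4% of all tested miRNAs did. Among the 9, the sign was not stable for miR-27a-5p, reversed in 9 of 21 alternatives, or for miR-23b-3p, reversed in 5 of 20. The median was -0.83 for the members and -0.07 for all. For 3 members every 24 h library lay below every untreated one, where 6.18% of all tested miRNAs did so. Between same-numbered libraries, 7 of the 10 members were lower at 24 h in all 3 pairs, where 18.5% of all tested miRNAs were, a count added after the values were seen. The 7 were miR-24-3p, miR-24-2-5p, miR-24-1-5p, miR-27a-3p, miR-27b-3p, miR-23a-5p and miR-3074-5p. No label gives these pairs. Members share hairpins, near-identical sequences or opposite strands, so none of these counts is of independent features.

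The miR-24 guide, miR-24-3p, stood at 13047, 10269 and 11513 CPM in the 24 h libraries 1, 2 and 3, against 121155, 21394 and 24136 CPM in the untreated libraries. The groups did not overlap, the 24 h libraries were close to each other, and the untreated library 1 stood far above the other two. Mean levels were 11610 ± 1392 CPM at 24 h and 55562 ± 56822 CPM in untreated cells (SD, n = 3 each; log2 fold change -2.26 ± 0.75 SE, edgeR adjusted p = 0.386). Without the untreated library 1 the log2 fold change was -1.03. The adjusted p ran from 0.00128 to 0.900 over the alternatives and was under 0.05 in 1 of them, the fit with no filter on low counts. With the replicate number as a block it was 0.0965.

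The chromosome 8 arm miR-24-2-5p, usually the discarded strand of its hairpin, showed the same order of groups without the high untreated library 1. It stood at 18.1, 42.9 and 20.2 CPM at 24 h, against 51.2, 100 and 79.9 CPM in untreated cells. All 24 h libraries lay below all untreated ones (log2 fold change -1.51 ± 0.57 SE, edgeR adjusted p = 0.437). The chromosome 13 arm miR-24-1-5p had 0, 8 and 0 counts at 24 h, against 6, 44 and 36 counts in untreated cells. The count of 0 in the 24 h libraries 1 and 3 allows up to 0.775 and 1.55 CPM, counting error only, and the untreated library 1, at 1.12 CPM, lay below the 24 h library 2, at 1.33 CPM, so the groups overlapped (edgeR adjusted p = 0.437). Its fitted log2 fold change of -3.35 ± 1.37 SE depends on the prior count. Without the 24 h library 2 it was -7.79.

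The guides of the other hairpins had smaller fitted differences. The miR-27a guide stood at 42794, 30623 and 46128 CPM at 24 h, against 46659, 62158 and 71621 CPM in untreated cells. The groups did not overlap, but the 24 h library 3 and the untreated library 1 nearly met (log2 fold change -0.59 ± 0.32 SE, edgeR adjusted p = 0.543). Its paralog miR-27b-3p stood at 34750, 23701 and 39679 CPM at 24 h, against 38594, 30877 and 75108 CPM in untreated cells, and the groups overlapped (log2 fold change -0.56 ± 0.43 SE). The miR-23a guide was the 1 member with a positive value. It stood at 92207, 80663 and 84684 CPM at 24 h, against 56110, 84894 and 48058 CPM in untreated cells, and the untreated library 2 lay among the 24 h libraries (log2 fold change 0.45 ± 0.31 SE, edgeR adjusted p = 0.626). The miR-23b guide stood at 2447, 2656 and 2440 CPM at 24 h, against 1853, 5506 and 1098 CPM in untreated cells, so the untreated libraries lay on both sides (log2 fold change -0.16 ± 0.58 SE, and 0.80 without the untreated library 2).

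Of the arms usually discarded, miR-23a-5p stood at 17.0, 71.3 and 41.5 CPM at 24 h, against 52.9, 158 and 60.4 CPM in untreated cells, with overlapping groups (log2 fold change -1.06 ± 0.70 SE). For miR-27a-5p the levels were 94.0, 256 and 128 CPM at 24 h, against 63.9, 360 and 74.7 CPM in untreated cells. Its log2 fold change of -0.06 ± 0.97 SE was 1.24 without the untreated library 2, and it turned positive under DESeq2 size factors, upper-quartile factors, DESeq2, limma-voom and the block.

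**Figure D3:**
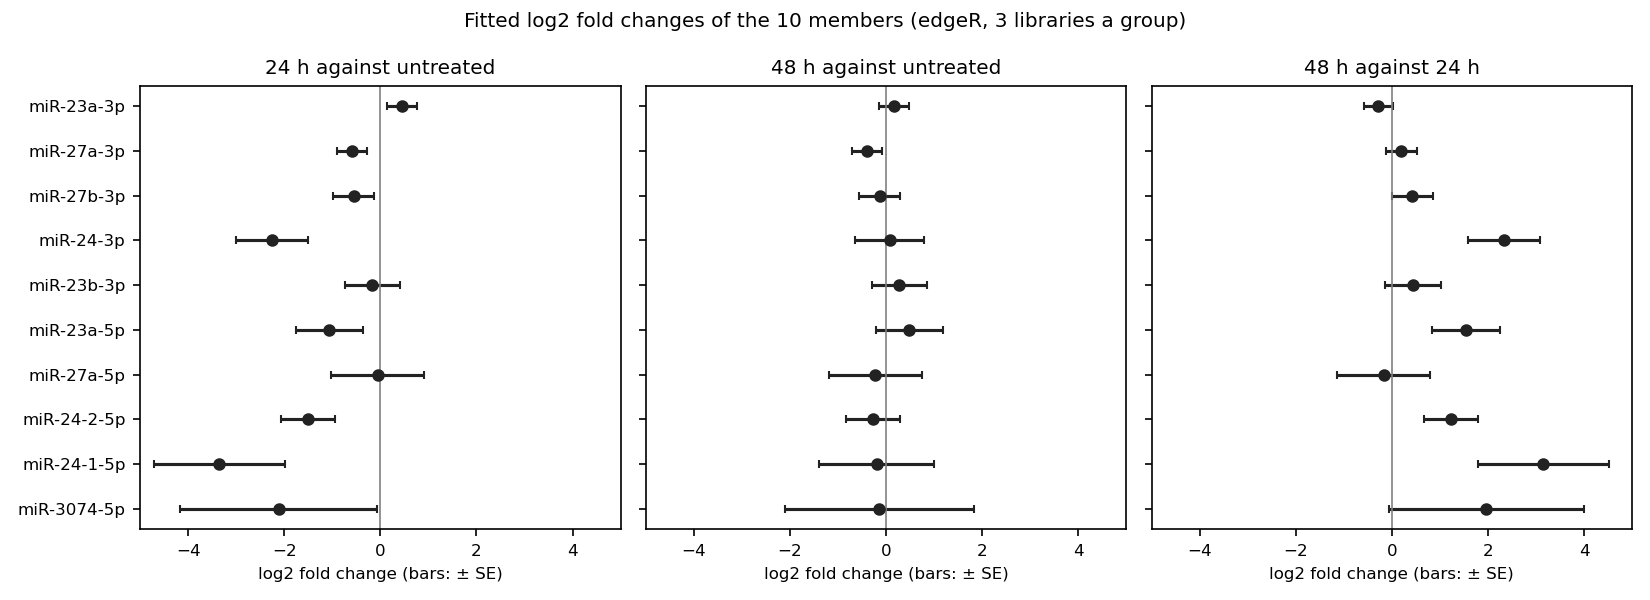
Fitted log2 fold changes (x axis) of the 10 members in the 3 comparisons, with bars of 1 SE. At 24 h against untreated 9 of 10 points lie below 0, at 48 h against 24 h 8 of 10 lie above 0, and none of them passed the test. At 24 h against untreated, miR-27a-5p and miR-23b-3p lie within 1 SE of 0.

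Ratios of members within a library need no scaling between libraries. The miR-24 guide relative to the summed miR-23 guides was 0.138, 0.123 and 0.132 at 24 h, against 2.09, 0.237 and 0.491 in untreated cells. The 3 ratios at 24 h were nearly equal, and all lay below those of untreated cells (difference in mean log2 ratio -2.25; two-sided exact permutation p = 0.1, the smallest possible, and 0.343 adjusted over the 24 ratio comparisons). Without the untreated library 1 the difference was -1.38, and without the untreated library 2 it was -2.95. The summed miR-27 guides relative to the summed miR-23 guides were 0.819, 0.652 and 0.985 at 24 h, against 1.47, 1.03 and 2.98 in untreated cells, again without overlap (-1.03 on the log2 scale; exact permutation p = 0.1, adjusted 0.343). The third ratio whose groups did not overlap was that of the miR-23a guide to its discarded arm. It was 5367, 1131 and 2030 at 24 h, against 1059, 536 and 794 in untreated cells (1.59 on the log2 scale, and 0.98 without the 24 h library 1; exact permutation p = 0.1, adjusted 0.343).

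Between the paralogs, miR-23a-3p outnumbered miR-23b-3p by 30.4 to 37.7 times at 24 h and by 15.4 to 43.8 times in untreated cells. The split of miR-27a-3p over miR-27b-3p was near even, at 1.16 to 1.29 at 24 h and 0.954 to 2.01 in untreated cells. Of the mir-24 5p arms, the chromosome 8 arm outnumbered the chromosome 13 arm by 30.5 times in the 24 h library 2 and by 9.66 to 42.4 times in untreated cells, with 0.5 added to each count. In the 24 h libraries 1 and 3 the chromosome 13 arm was at 0, so the added 0.5 sets the ratio and it is not a measured value. The first 2 of these ratios overlapped between 24 h and untreated cells.

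**Figure D4:**
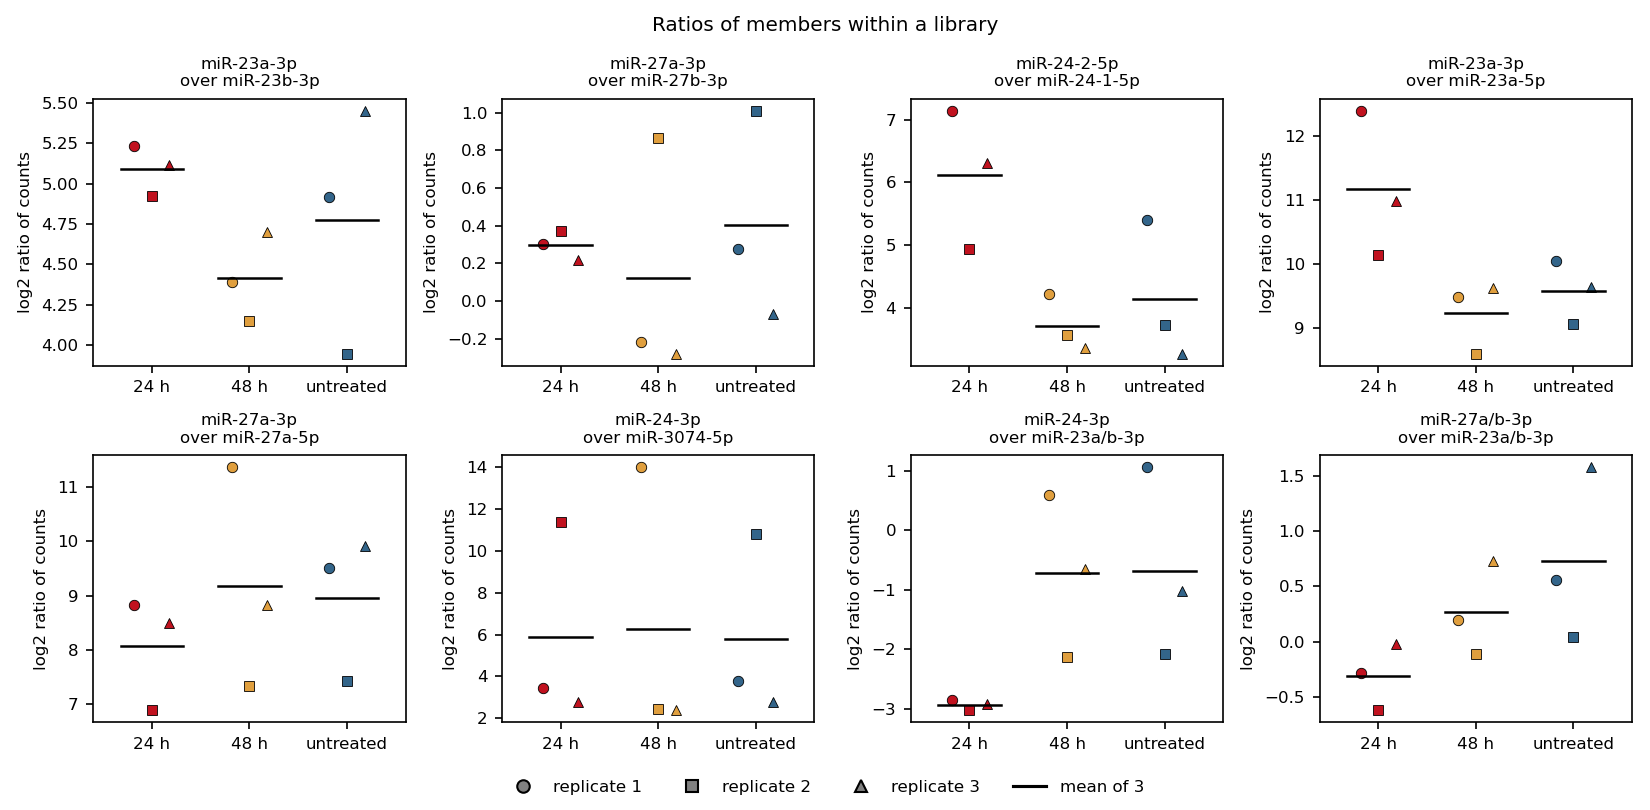
Log2 ratios of counts of members within each library (y axis), with 0.5 added to each count, by group; the symbol gives the replicate number and the line the mean of 3. For miR-24-2-5p over miR-24-1-5p, the added 0.5 sets the values of the 24 h libraries 1 and 3. The ratio of miR-24-3p to the summed miR-23 guides is tight at 24 h, and the ratio of miR-24-3p to miR-3074-5p splits 3 libraries from the other 6.

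The antisense miRNA miR-3074-5p was nearly absent from 1 library of each group. The sources used here do not say how reads of the 2 strands were assigned or whether this was done alike in every library, which limits what its levels and its ratio to miR-24-3p mean. It had 4669, 23 and 3206 counts in the 24 h libraries 1, 2 and 3, 24, 33756 and 33457 counts in the 48 h libraries, and 47861, 70 and 15511 counts in the untreated libraries. In CPM these were 1206, 3.81 and 1662 at 24 h, 6.93, 3537 and 7707 at 48 h, and 8911, 11.95 and 3522 in untreated cells. Each group thus held 1 library under 13 CPM and 2 libraries above 1000 CPM, and the low one was replicate 2 at 24 h and in untreated cells and replicate 1 at 48 h. The ratio of miR-24-3p to miR-3074-5p was 5.28 to 13.6 in the 6 libraries with a high level and 1778 to 16413 in the 3 with a low level. In the 48 h library 1, which had 24 counts of miR-3074-5p, miR-24-3p stood at 116186 CPM, its second highest level. Both antisense hairpins hold the sequence of miR-3074-5p, so its counts cannot be given to a locus. The opposite arm of the chromosome 8 hairpin, miR-3074-2-3p, did not split in this way, at 42.0 to 63.8 CPM at 24 h, 131 to 207 CPM at 48 h and 46.5 to 215 CPM in untreated cells. The log2 fold change of miR-3074-5p was -2.12 ± 2.05 SE at 24 h against untreated (edgeR adjusted p = 0.726, and 0.0156 with no filter on low counts). Without the untreated library 1 it was -0.90, and without the 24 h library 2 it was -1.51. Within same-numbered libraries it was lower at 24 h in all 3, in library 2 with 23 against 70 counts.

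The tables also count reads under Rfam precursor families, which are separate features from the mature miRNAs. The sources used here do not say how a read was given to a family or to a mature miRNA. This comparison was added after the values were seen. Fitted over the 74 families that passed the filter, the mir-23 and mir-24 families fell at 24 h against untreated, and they were the only ones of the 74 that passed edgeR's test (2.7%), where 8.11% had an unadjusted p under 0.05. The mir-27 family had the next lowest p.

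The mir-24 family stood at 352, 261 and 241 RPM (reads scaled to 1000000 counted reads) in the 24 h libraries 1, 2 and 3, against 998, 1102 and 905 in the untreated libraries. The groups were far apart and each was narrow. Fold changes were fitted on family counts after TMM scaling, not on these RPM. The log2 fold change was -2.03 ± 0.39 SE (edgeR adjusted p = 0.00402), and -1.81 with all counted reads as the total (edgeR adjusted p = 0.0169). The 48 h libraries, at 1007, 1166 and 1008, lay with the untreated ones. The mir-23 family stood at 2562, 1856 and 3057 RPM at 24 h, against 5765, 4573 and 18463 in untreated cells (log2 fold change -1.96 ± 0.35 SE, edgeR adjusted p = 0.00379). Its untreated library 3 stood far above the other two, and without it the log2 fold change was -1.34. The mature miR-23 guides did not share this fall, with log2 fold changes of 0.45 ± 0.31 SE (miR-23a-3p) and -0.16 ± 0.58 SE (miR-23b-3p). The mir-27 family stood at 2496, 2078 and 2147 at 24 h, against 3050, 2621 and 5757 in untreated cells, without overlap but without passing the test (log2 fold change -0.85 ± 0.27 SE, edgeR adjusted p = 0.169). By place of their 24 h libraries below all untreated ones, 9.46% of the 74 families were like these 3.

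Without the 24 h library 3 the test called 0 families, with an adjusted p of 0.0705 for both. The mir-24 call was also lost without the untreated library 2 (adjusted p = 0.0518) and the mir-23 call in DESeq2 (0.0838) and with all counted reads as the total (0.07). With the total of precursor counts and no factors, neither passed (0.0913 for both), and the log2 fold changes shrank to -1.11 for mir-23, -1.34 for mir-24 and -0.082 for mir-27. Both were called with the replicate number as a block.

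**Figure D5:**
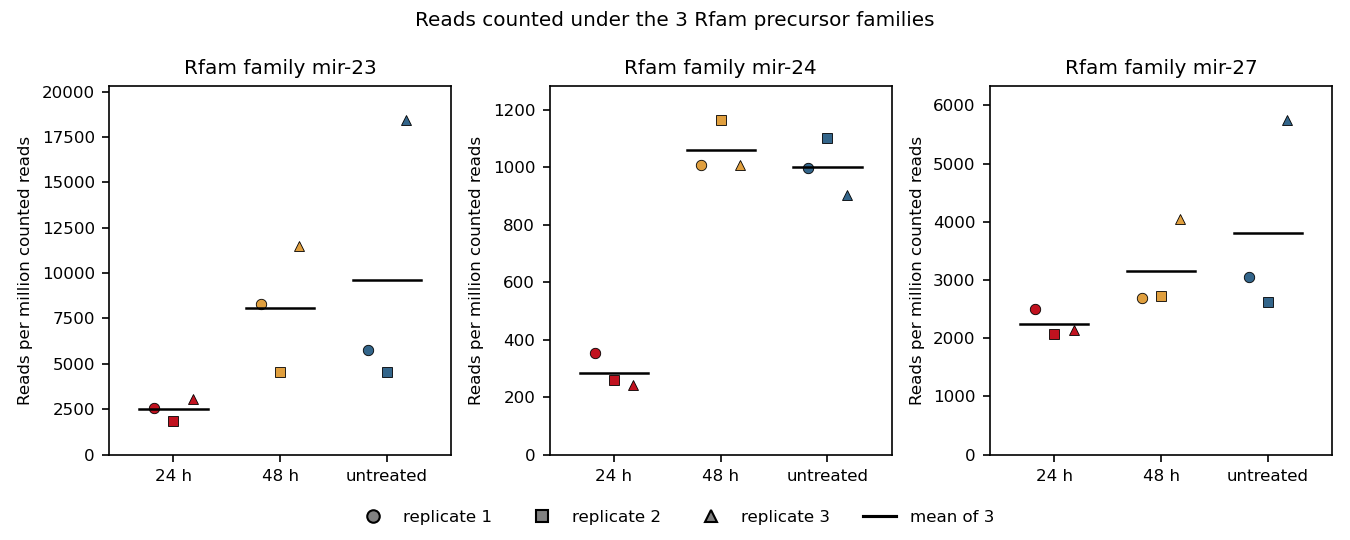
RPM of counted reads (y axis) under the Rfam families mir-23, mir-24 and mir-27 in the 24 h, 48 h and untreated libraries; the symbol gives the replicate number and the line the mean of 3. For mir-24 the 24 h libraries lie at 241 to 352, the 48 h libraries at 1007 to 1166 and the untreated libraries at 905 to 1102.

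After 48 h of silica the fitted log2 fold changes against untreated cells lay between -0.39 and 0.49 for the 10 members. No member passed the test (0 of 10, where 0% of the 453 miRNAs tested passed in edgeR), and 0 members had an unadjusted p under 0.05, where 0.883% of all did. DESeq2 and limma-voom also called 0 members. The groups overlapped for all 10 members, where 3.75% of all tested miRNAs had separate groups. Of the members 4 had a positive and 6 a negative log2 fold change, with a median of -0.14 against 0.03 for all.

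The miR-24 guide stood at 116186, 18907 and 40688 CPM at 48 h, against 121155, 21394 and 24136 CPM in untreated cells. In each group library 1 stood highest and library 2 lowest. Its log2 fold change of 0.08 ± 0.72 SE changed sign with the scaling, and it was -0.88 without the 48 h library 1. The miR-27a guide stood at 40509, 49285 and 47606 CPM at 48 h, against 46659, 62158 and 71621 CPM in untreated cells (log2 fold change -0.39 ± 0.31 SE), and the miR-23a guide at 73004, 77967 and 61242 CPM against 56110, 84894 and 48058 CPM (0.17 ± 0.31 SE, and -0.07 without the untreated library 3). Among the discarded arms, miR-23a-5p had the largest value, 0.49 ± 0.69 SE, with 127 ± 65.2 CPM at 48 h and 90.5 ± 58.8 CPM in untreated cells (SD, n = 3 each). In no ratio of members were the 48 h and untreated libraries separate. The summed share of the members was 21.9% ± 1.25 at 48 h and 24.0% ± 1.69 in untreated cells (SD, n = 3 each; exact permutation p = 0.2).

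The direct comparison of 48 h with 24 h shares its libraries with the comparisons above. No member passed here (0 of 10, where 0% of the 453 miRNAs tested passed in edgeR), and DESeq2 and limma-voom called 0 members. The unadjusted p was under 0.05 for 2 members, both higher at 48 h, where 9.71% of all tested miRNAs had such a p and 5.52% had it with a higher level. These were miR-24-3p and miR-24-1-5p. The filter kept miR-24-1-5p only through untreated and 48 h libraries, so its place in this count and the next is tied to the filter. The miR-24 guide averaged 58594 ± 51051 CPM at 48 h and 11610 ± 1392 CPM at 24 h (SD, n = 3 each; log2 fold change 2.34 ± 0.76 SE, edgeR adjusted p = 0.404, and 0.00108 with no filter on low counts). Without the 48 h library 1 the log2 fold change was 1.43. Every 48 h library lay above every 24 h library for miR-24-3p, miR-24-2-5p, miR-24-1-5p and miR-23a-5p, where 10.4% of all tested miRNAs had all 48 h libraries above. The arm miR-24-2-5p stood at 61.5, 81.5 and 48.6 CPM at 48 h, against 18.1, 42.9 and 20.2 CPM at 24 h (log2 fold change 1.23 ± 0.57 SE, edgeR adjusted p = 0.458). The chromosome 13 arm miR-24-1-5p had 11, 65 and 20 counts at 48 h, against 0, 8 and 0 counts at 24 h. The discarded arm miR-23a-5p stood at 102, 201 and 77.6 CPM at 48 h, against 17.0, 71.3 and 41.5 CPM at 24 h (1.55 ± 0.71 SE).

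The miR-23a guide stood at 73004, 77967 and 61242 CPM at 48 h, against 92207, 80663 and 84684 CPM at 24 h, with all 48 h libraries lower, as for 10.4% of all tested miRNAs (log2 fold change -0.28 ± 0.31 SE, edgeR adjusted p = 0.708). The ratio of miR-24-3p to the summed miR-23 guides was 1.52, 0.230 and 0.640 at 48 h, against 0.138, 0.123 and 0.132 at 24 h. The groups did not overlap (2.21 on the log2 scale, exact permutation p = 0.1, adjusted 0.343). The difference in mean log2 ratio was 1.55 without the 48 h library 1 and 2.91 without the 48 h library 2. Both the ratio of miR-23a-3p to miR-23b-3p, at 17.8 to 26.0 at 48 h and 30.4 to 37.7 at 24 h, and that of miR-23a-3p to miR-23a-5p, at 388 to 788 at 48 h and 1131 to 5367 at 24 h, were lower in every 48 h library (exact permutation p = 0.1, adjusted 0.343 for each). The ratio of miR-24-2-5p to miR-24-1-5p was 10.3 to 18.6 at 48 h, against 30.5 in the 24 h library 2, and is not compared further because miR-24-1-5p was at 0 in the other two. The Rfam family mir-24 rose at 48 h against 24 h (log2 fold change 2.10 ± 0.40 SE) and so did mir-23 (1.77 ± 0.35 SE), each with an edgeR adjusted p of 0.00496 among 74 families, of which 2.7% passed. Leaving out library 2 or library 3 of 24 h ended both calls, and mir-23 was not called without the 48 h library 3 (adjusted p = 0.0922), in DESeq2 (0.0961) or with all counted reads as the total (0.172). The mature miR-23a guide, lower at 48 h, did not share the rise of the mir-23 family. In 48 h against untreated cells, 0% of the 74 families passed and 1.35% had an unadjusted p under 0.05; at 48 h against 24 h 10.8% had one.

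Of 5 related miRNAs named with the members, the chromosome 13 arm miR-23b-5p ran opposite to the mir-24 arms. It stood at 563, 1039 and 798 CPM at 24 h, against 408, 77.8 and 271 CPM in untreated cells (log2 fold change 1.66 ± 0.75 SE, edgeR adjusted p = 0.482). At 48 h it stood at 504, 109 and 597 CPM. The antisense arm miR-3074-2-3p, which is complementary to miR-24-2-5p over 20 bases, stood at 45.2, 63.8 and 42.0 CPM at 24 h, against 46.5, 215 and 152 CPM in untreated cells, and at 131, 207 and 140 CPM at 48 h. Its 48 h libraries all lay above its 24 h libraries, as for 10.4% of all tested miRNAs (log2 fold change 1.66 ± 0.63 SE, edgeR adjusted p = 0.413). The remaining 3 had overlapping groups in all 3 comparisons: miR-27b-5p at 94.8 to 127 CPM at 24 h and 10.2 to 105 CPM in untreated cells, miR-3074-1-3p at 3.63 to 5.17 and 3.63 to 12.8 CPM, and miR-128-3p, whose seed overlaps that of miR-27, at 335 to 465 and 340 to 643 CPM.

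Pairs of members from 1 cluster had correlations of either sign across libraries, and none passed adjustment. Libraries were permuted without regard to group, so these values mix differences between groups with covariation within them. Over the 9 libraries, miR-23a-3p and miR-27a-3p, which share a primary transcript, had r = -0.46 and rho = -0.33 on log2(CPM + 1) (exact permutation p = 0.211 and 0.385), and r became 0.01 once the 2 libraries farthest from the miR-23a-3p median were left out. The chromosome 8 pair miR-27a-3p and miR-24-2-5p had r = 0.49 and rho = 0.68 (exact permutation p = 0.184 and 0.0503), and r = 0.57 without the 2 farthest. The chromosome 13 guides miR-23b-3p and miR-27b-3p had r = -0.66 and rho = -0.67 (exact permutation p = 0.0505 and 0.0589), and r = -0.31 without the 2 farthest. The paralogs miR-23a-3p and miR-23b-3p had r = 0.72 and rho = 0.63 (exact permutation p = 0.0292 and 0.0760). Without the 2 farthest r was 0.16, but leaving them out also narrows the range of miR-23a-3p. For miR-24-3p and miR-3074-5p r was 0.09 and rho 0.50 (exact permutation p = 0.807 and 0.178). Over the 7 pairs compared, the lowest adjusted p was 0.177 for r and 0.177 for rho.

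The miRNAs most like a member in pattern were ranked by r over the 9 libraries among the other 452 tested. For miR-24-3p they were miR-8105 (r = 0.85), miR-151-3p (0.74), miR-6546-5p (0.70), miR-8106 (0.69) and let-7j (0.69), of which miR-8105 and miR-8106 averaged 2.25 and 2.01 CPM. For miR-23a-3p the nearest were miR-191-5p (r = 0.89), miR-27b-5p (0.87), miR-181a-1-3p (0.85), miR-744-3p (0.84) and miR-351-5p (0.82). For miR-27a-3p they were miR-1843a-5p (r = 0.84), miR-200a-3p (0.80), miR-140-3p (0.79), miR-532-3p (0.76) and miR-201-5p (0.72). No other member was among the 5 nearest of any of these guides. For miR-3074-5p the nearest, miR-423-5p, reached only r = 0.71.

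Other features of the libraries moved in part with these values, and their part in them was not tested. The 48 h library 2 and the untreated library 2 were the most alike of all pairs (r = 0.969 over miRNAs, which do not count as replicates). They held the highest levels of miR-23b-3p, at 4390 CPM at 48 h and 5506 CPM in untreated cells, and of miR-23a-5p, at 201 CPM at 48 h and 158 CPM in untreated cells. Summed macrophage and myeloid markers stood at 70806 to 82837 CPM at 24 h, 85607 to 107348 CPM at 48 h and 75494 to 105025 CPM in untreated cells, with all 6 markers listed in every library. Serum, liver and erythroid markers stood at 5577 to 9641 CPM at 24 h, 1945 to 6471 CPM at 48 h and 5083 to 5719 CPM in untreated cells, with 5 or 6 of 6 listed. Within that list miR-451a, an erythroid miRNA named after its values were seen, stood at 1605, 872 and 3379 CPM at 24 h, 762, 786 and 409 CPM at 48 h and 630, 148 and 556 CPM in untreated cells, so every 24 h library lay above all others. Of the same list, miR-320-3p stood at 3442 to 4130 CPM at 24 h, 219 to 5156 CPM at 48 h and 3787 to 4676 CPM in untreated cells. In that order, miR-122-5p stood at 1252 to 2256, 407 to 1087 and 255 to 1295 CPM. For miR-486a-5p the levels were 5.14 to 7.26, 2.07 to 4.62 and 2.73 to 10.1 CPM. For miR-486b-5p they were 0.518 to 17.8, 1.36 to 3.47 and 1.37 to 7.45 CPM. All of these overlapped between 24 h and untreated cells. The erythroid miR-144-3p was at 0 in the 24 h libraries 1 and 3 and the untreated library 1. Mesenchymal and endothelial markers stood at 644 to 1608, 535 to 1053 and 434 to 2242 CPM in the same order, with 5 to 7 of 7 listed, miR-145a-5p at 0 in the untreated libraries and miR-214-3p at 0 in 1 of them. Epithelial markers stood at 187 to 287, 227 to 333 and 211 to 307 CPM, with 7 or 8 of 8 listed and miR-205-5p at 0 in 3 libraries. In pooled vesicles, fewer vesicles carrying a miRNA and fewer copies in each cannot be told apart.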

How the data were processed

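Per the file headers, each library has a deposited table of read counts per small RNA. The submitters' processing notes list Trim Galore, Bowtie, HTSeq and mm10, without versions. Rows of class mature were joined over the 9 libraries, with an absent row taken as 0. The filterByExpr function of edgeR 4.0.16 (R 4.3.3, minimum count 10) kept 453 of 1101 mature miRNAs. TMM factors were 0.829 to 1.16. The 3 groups entered a single quasi-likelihood fit (6 residual degrees of freedom, no replicate term). Benjamini-Hochberg adjustment covered all 453, and 0.05 was the threshold. The typical SE (median) of log2 fold changes at 24 h was 0.825. DESeq2 1.42.0 and limma 3.58.1 served as alternatives. Rfam families were fitted in the same way. For ratios and shares, exact permutation tests (two-sided) were used. The test was checked on simulated data. The text names all 10 members, 5 related miRNAs and the nearest miRNAs in pattern. Members and lists were chosen with earlier results of these data known. The neighbours of miR-3074-5p, the Rfam families, the markers at 0 and all markers given singly were named after their values were seen.

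No libraries of a group were copies of each other, since chi-square between them was 324 to 3820 per degree of freedom. The p-values measure the spread between libraries, which the series' design text calls independent. Deviations from group means were compared between libraries. Between 24 h and untreated, r was 0.136 for number 1, 0.439 for number 2 and 0.149 for number 3. Between 48 h and untreated it was 0.152, 0.636 and 0.315 in that order. Every r was over 0.1, which by the rule used would pair these libraries by number, although no label says so. Differently numbered libraries could reach as much (r = 0.160 for 24 h library 3 with untreated library 1, and 0.360 for 48 h library 3 with untreated library 1). The main fit and the permutation tests were unpaired, and the replicate block was an alternative. Between 48 h and 24 h r was -0.07, 0.289 and 0.253, and the numbers were not taken as pairs.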

Additional observations from a re-analysis of the deposited data

Results flagged for a closer look

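The Rfam families mir-23 and mir-24 differed between the 2 exposure times by the direct test of 48 h against 24 h. Their log2 fold changes were 1.77 and 2.10, each with an edgeR adjusted p of 0.00496, and all 48 h libraries lay above all 24 h libraries for both. Neither passed without the 24 h library 2 (adjusted p = 0.129 for mir-23 and 0.0855 for mir-24), without the 24 h library 3 (0.208 and 0.168) or with the total of precursor counts and no factors (0.141 for both). In the same comparison the mature miR-23 guides had log2 fold changes of -0.28 ± 0.31 SE (miR-23a-3p) and 0.44 ± 0.58 SE (miR-23b-3p).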

How the results depend on the processing

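In edgeR and under DESeq2, limma-voom, the other scalings and the replicate block, 0 members were called in each comparison; with no filter on low counts 2 members were called at 24 h against untreated and 2 at 48 h against 24 h, and the cause was not tested. Over all miRNAs at 24 h against untreated, the count of calls was 0 in the main analysis, 1 with upper-quartile factors, 1 with only the 2 groups fitted, 3 with the replicate block, 4 in DESeq2 and 7 with no filter, and 0 to 1 with a library left out. At 48 h against untreated it was 1 in DESeq2 and 1 with no filter. In 48 h against 24 h it was 3 with the block, 6 in DESeq2 and 16 with no filter, and 0 to 1 with a library left out. Rfam calls at 24 h against untreated were 1 with all counted reads as total, 1 with precursor counts as total (a family other than mir-23, mir-24 and mir-27), 1 in DESeq2 and 0 to 2 with a library left out. For 48 h against 24 h they ran from 0 to 2 over the 4 other settings and from 0 to 2 with a library left out. There mir-24 was called in DESeq2 (adjusted p = 0.00212).

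Small log2 fold changes turned sign. At 24 h against untreated, miR-27a-5p was 0.029 with DESeq2 size factors and in DESeq2, 0.29 with upper-quartile factors, 0.32 with the block, 0.30 in limma-voom and 1.21 without both libraries numbered 2 of 48 h and untreated; for miR-23b-3p upper-quartile factors gave 0.15, the block 0.14, limma-voom 0.15 and leaving out that pair 0.78. At 48 h against untreated, miR-24-3p was -0.017 with DESeq2 size factors and in DESeq2, -0.024 with all counted reads, -0.041 with mature totals, -0.083 with scaling without the members and -0.027 with no filter. There miR-27a-5p was 0.013 and miR-3074-5p 0.056 with all counted reads, miR-3074-5p was 3.25 and miR-24-1-5p 0.13 with the block, and miR-24-1-5p was 0.29 in limma-voom. At 48 h against 24 h, miR-27a-5p was 0.21 with all counted reads and 0.013 with no filter. With precursor counts as total, Rfam mir-24 was -0.025 at 48 h against untreated and Rfam mir-27 was -0.15 at 48 h against 24 h.

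With a library left out, these values crossed 0. At 24 h against untreated the range was -0.63 to 0.80 for miR-23b-3p and -0.65 to 1.24 for miR-27a-5p. At 48 h against untreated it was -0.068 to 0.46 for miR-23a-3p, -0.062 to 1.18 for miR-23a-5p, -0.18 to 1.23 for miR-23b-3p, -0.70 to 0.13 for miR-24-1-5p, -0.88 to 1.21 for miR-24-3p, -1.54 to 1.05 for miR-27a-5p, -0.47 to 0.25 for miR-27b-3p and -1.14 to 1.16 for miR-3074-5p. For Rfam families there it was -0.62 to 0.46 (mir-23), -0.16 to 0.32 (mir-24) and -0.53 to 0.015 (mir-27). The value of miR-27a-5p at 48 h against 24 h ran from -1.43 to 0.47. Log2 ratios ran from -0.093 to 0.66 (miR-23a-3p over miR-23b-3p) and -0.35 to 0.19 (miR-27a-3p over miR-27b-3p) at 24 h against untreated. The ratio of miR-24-3p to miR-3074-5p ran from -2.67 to 2.59 at 24 h against untreated, -3.37 to 3.00 at 48 h against untreated and -3.45 to 3.16 at 48 h against 24 h. At 48 h against untreated the other ratios ran from -0.85 to 0.22 (miR-24-2-5p over miR-24-1-5p), -0.74 to 0.83 (miR-24-3p over summed miR-23), -0.86 to 1.15 (miR-27a-3p over miR-27a-5p) and -0.65 to 0.020 (miR-27a-3p over miR-27b-3p), and at 48 h against 24 h the last ran from -0.54 to 0.029. The count of miR-24-1-5p in the 24 h libraries limits what can be said of it.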
